A study of Mus musculus with 30 samples.

Results

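Plac8 (Entrez gene 231507) was followed through the pilot single-cell libraries of a mouse arthritis study, as 1 of the 23013 gene rows of the expression matrix. The row was found by its gene number, and the gene was selected on its per-million levels across organs and states and within marker classes of barcodes in these same libraries. Its own levels and differences are therefore given as a description, without a test. Tests are given only for other genes.

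The matrix combined 8 organs, taken from 8 male mice of the strain DBA1/J, in 30 Seq-Well libraries. Of the mice, 4 had collagen-induced arthritis (CIA), brought on by intradermal bovine type II collagen in complete Freund's adjuvant and a later boost in incomplete adjuvant, and 4 healthy controls received phosphate-buffered saline in the same way. No engineered allele is named for any mouse. Summed limb scores were 8 in CIA mice S1 and S2, 3 to 4 in S6 and 3 in S7, while healthy mice are named H3, H4, H6 and H7. Blood libraries held mononuclear cells from a density gradient after red cell lysis, so they do not stand for whole blood.

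Cells were thawed from frozen, and libraries held 27 to 934 barcodes and 217494 to 7886790 units each. A unit is 1 of the whole-number values that the authors obtained by summing transcript counts over a cell and its nearest neighbours, so barcodes of a library share transcripts and were never treated as replicates. Levels are given as units per 1000000 units outside the haemoglobin genes (UPM), because haemoglobin took 0 to 60.4% of a library's units. Blood and lymph node came from 4 healthy and 3 CIA mice, and each other organ from 1 mouse of each state. Library titles end in CIA or 2CIA, an unexplained suffix that was treated as a library batch. All CIA blood libraries carry 2CIA, and in 5 organs (thymus, spleen, skin, muscle and lung) the library of H6 carries CIA and that of S1 2CIA, so suffix, mouse and state cannot be told apart there. Of 8255 barcode sequences, 13 occurred in more than 1 library, and all 13 were in both the lung library of S1 and the spleen library of H6, some of them in joint, muscle, skin or healthy lung as well.

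Plac8, also known as onzin, encodes a small cysteine-rich protein that was first described in placenta. In the immune system it is abundant in Ly6C-high monocytes, granulocytes and plasmacytoid dendritic cells, and neutrophils of mice lacking it kill engulfed bacteria poorly. In other settings it has been tied to the transcription factor C/EBPβ, to the fusion of autophagosomes with lysosomes, and to interferon responses of lymphocytes.

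The gene lies on the minus strand of chromosome 5 (GRCm38, RefSeq chr5:100551589-100572253). GENCODE M21 places it at chr5:100553725-100572245 with 4 transcripts, of which Plac8-201 has 5 exons. The stretch of 210 bases just upstream of the GENCODE start is printed because the transcription factors tied to the gene recognise short motifs (RefSeq promoter table, GRCm38.p6, chr5:100572246-100572455, minus strand, 5′ to 3′).

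Plac8: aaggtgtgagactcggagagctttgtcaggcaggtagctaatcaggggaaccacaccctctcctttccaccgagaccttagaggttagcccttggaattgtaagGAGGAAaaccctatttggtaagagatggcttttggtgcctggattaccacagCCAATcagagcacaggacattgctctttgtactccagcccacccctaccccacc

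The capitals mark 2 matches, GAGGAA, the core that the myeloid factor SPI1 recognises, and CCAAT, a general promoter element. They began 106 and 54 bases before the end of the stretch. Among the first 210 bases of 32851 RefSeq promoter windows, counting both strands, 19.6% held GAGGAA and 29.9% held CCAAT. TTGCNNAA, a C/EBP-type pair found in 8.44% of the stretches, and GAAANNGAA, an interferon-response pair found in 6.03%, had no match here. These matches describe letters only.

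Plac8 was detected in 29 of the 30 libraries, from 9.85 UPM in healthy skin to 2914 UPM in the blood of CIA mouse S2. In the healthy state it was highest in spleen (793 UPM, 1 mouse) and lung (529.8 UPM, 1 mouse). Thymus (424 UPM), muscle (388 UPM) and joint (335 UPM) followed, above the medians of blood (250.02 UPM, n = 4) and lymph node (117 UPM, n = 4), and skin was lowest. In the CIA state the order was different, with blood first (median 2445 UPM, n = 3), then lung (1951 UPM), spleen (1706 UPM), joint (871 UPM), thymus (672 UPM), lymph node (median 381 UPM, n = 3), muscle (338 UPM) and skin (15.5 UPM).

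Healthy blood and healthy lymph node overlapped, at 0 to 318 UPM and 70.8 to 241 UPM. The lung and spleen of S1 lay inside the range of the 3 CIA blood samples, and the muscle of S1 inside the range of the 3 CIA lymph nodes. These neighbours in the order are thus not set apart beyond the spread between mice, and organs from 1 mouse have no spread of their own. In skin the 18 healthy and 22 CIA barcodes with Plac8 held 1 unit each, which places the skin value at the lowest step of the matrix.

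**Figure D1:**
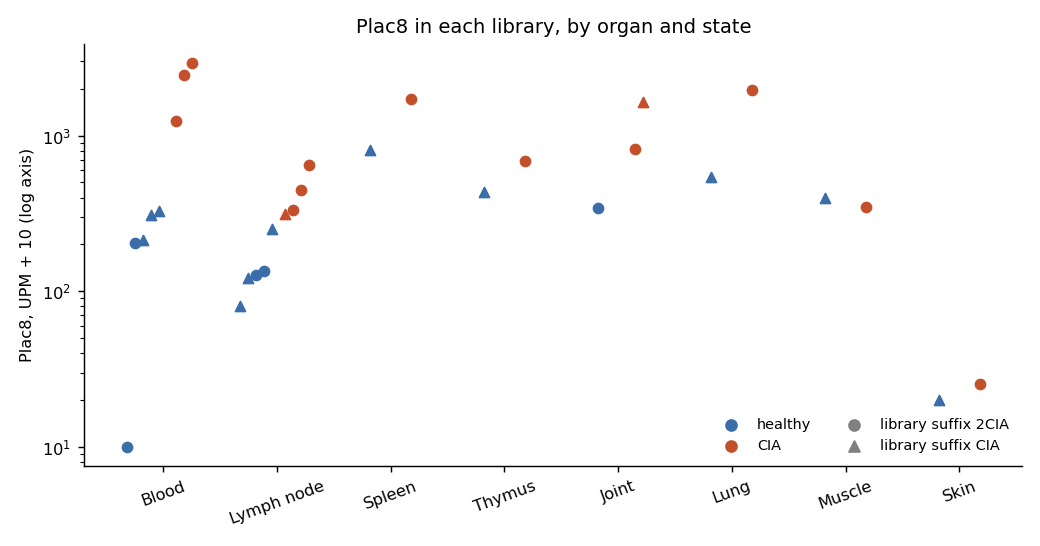
Plac8 in each of the 30 libraries (UPM + 10, log axis) by organ, coloured by state, with the marker showing the title suffix. The 3 CIA blood libraries sit between 1224 and 2914 UPM, above every healthy blood library, and muscle is the organ in which the CIA library is lower than the healthy one.

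Plac8 was higher in the CIA than in the healthy group in 7 of the 8 organs, and at least 1.5 times higher in 6 of them when 10 UPM was added to both values. Among the 5666 genes whose mean level reached 25 UPM, 172 (3.04%) were higher in at least 7 organs and 28 (0.494%) were at least 1.5 times higher in at least 6. Among those 28, Plac8 included, were the interferon-stimulated genes Ifi27l2a, Ifit3, Ifitm3, Irf7, Rsad2, Rtp4, Xaf1 and Zbp1, the neutrophil genes S100a8, S100a9 and Lcn2, and the monocyte genes Ly6c2 and F13a1. These names were read off after the values were seen. In 6 of the organs the value rests on mouse S1 and 1 healthy mouse.

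In blood, Plac8 was 2914 UPM in S2, 2445 UPM in S6 and 1224 UPM in S7. It was 202 UPM in H4, 318 UPM in H6 and 298 UPM in H7, and it was listed at 0 in H3. The groups did not overlap, and the lowest CIA mouse was 3.85 times the highest healthy mouse. Of 5153 genes tested in blood, 3.12% had every CIA mouse above every healthy mouse.

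The blood library of H3 was the smallest of all, with 27 barcodes and 7 distinct profiles. On the log2(UPM + 10) scale, which understates changes of low genes, the mean difference of Plac8 was 4.10 (4 against 3 mice). The residual SD between mice of a state was 1.92. The difference was 2.897 without H3 and 4.96 with a pseudocount of 1. The median difference of all genes in blood was -0.38, and only 5 genes had a larger positive difference than Plac8. With libraries of the suffix 2CIA alone, which leaves H3 and part of H4 as healthy mice, the difference was 5.52. The 2 libraries of H4, 1 of each suffix, gave 194 and 203 UPM.

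The white cells of these blood samples were not alike in the states. The summed level of 19 Ly6C-high monocyte markers was 2327 to 6512 UPM in healthy and 6499.9 to 25752 UPM in CIA blood, with none of the markers at 0 throughout a group. The sum of 17 T cell markers was 1781 to 3617 UPM in healthy and 717 to 903 UPM in CIA blood. More cells of a type and more RNA per cell cannot be told apart in such sums. When barcodes of the Ly6C-high monocyte class, defined by markers, were left out, the Plac8 difference was 3.21. Without all myeloid classes it was 3.34. S2 then kept 73 barcodes, 71 of them of the erythroid marker class at 2495 UPM, and H3 was at 0 with 27 barcodes. Which cells carry the remaining difference was not tested.

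In lymph node, Plac8 was 637 UPM in S1, 321 UPM in S2 and 381 UPM in S7. Healthy values were 117 UPM in H3, 116 UPM in H4, 70.8 UPM in H6 and 241 UPM in H7. Again the groups did not overlap, although here the lowest CIA mouse was just 1.33 times the highest healthy one, and 2.07% of the 5159 genes tested had every CIA mouse above every healthy mouse. The group means were 446 ± 168 UPM (SD, n = 3) and 136 ± 73.3 UPM (SD, n = 4).

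The mean difference was 1.70 (residual SD between mice 0.61) on the log2 scale. The median over all genes was -0.01, and 13 genes had a larger difference than Plac8. Between the libraries of 1 mouse the level varied as well, at 436 UPM (2CIA) and 303 UPM (CIA) in S7 and at 124 UPM (2CIA) and 111 UPM (CIA) in H4. Within the suffix 2CIA the difference was 1.81. No barcode of the lymph node fell in the Ly6C-high monocyte, macrophage or neutrophil classes. Leaving those classes out therefore removes nothing, and the difference of 1.70 could not change. The defining monocyte and macrophage markers Chil3, F13a1, Vcan, Csf1r, C1qa and Adgre1 were listed at 0 in all lymph nodes, and 9 of the 19 monocyte markers were at 0 in both states. The summed monocyte markers were 1040 to 1791 UPM in healthy and 1241 to 1776 UPM in CIA lymph node. Within the same list, Ly6c2 (134 to 264 UPM in healthy, 268 to 342 UPM in CIA) and Ms4a4c (97.5 to 161 UPM in healthy, 164 to 277 UPM in CIA) did not overlap, although neither passed the test (limma adjusted p = 1.0 for both).

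H7 held the highest healthy lymph node value. Haemoglobin took 14.9% of the units of that library, and 45.4% of its Plac8 units were in 35 barcodes of the erythroid marker class, at 747 UPM. In alternatives chosen after seeing the data, without erythroid-marker barcodes the Plac8 difference in lymph node was 1.86, and in blood 4.07. Whether Plac8 in these barcodes belongs to the erythroid cells was not tested.

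The same 6 mice gave both blood and lymph node, next to S6 with blood and S1 with lymph node alone. Within S2, Plac8 was 2914 UPM in blood and 321 UPM in lymph node, and within S7 it was 1224 and 381 UPM. Within H4 it was 202 and 116 UPM, within H6 318 and 70.8 UPM and within H7 298 and 241 UPM. All mice but H3, listed at 0 in blood, thus had more Plac8 in blood. With state in the fit the difference of lymph node minus blood was -0.87 (residual SD 1.51), against a median of 0.30 over all genes. It was -1.63 without H3 and -0.50 without S2, so its size depends on those mice.

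In the spleen, Plac8 was 793 UPM in H6 and 1706 UPM in S1, a ratio of 2.15. Beside it the summed neutrophil markers were 4542 UPM in H6 and 110502 UPM in S1, the monocyte markers 3044 and 7115 UPM and the erythroid markers 614 and 102348 UPM. In the lung Plac8 was 529.8 UPM in H6 and 1951 UPM in S1, a ratio of 3.68. Its neutrophil markers were 496 and 17591 UPM, while the monocyte markers were 24553 and 20827 UPM. Of the 19 monocyte markers 6 were at 0 in H6 (Ly6c2, Ly6c1, F13a1, Vcan, Ms4a4c and Gm9733) and 2 in S1 (Irf8 and Gm9733). In S1, 80 barcodes of the Ly6C-high monocyte class, 44.0% of its barcodes, held 66.7% of the Plac8 units. All 70 barcodes of H6 were of the macrophage class. The part of these cells in the Plac8 ratios was not tested. In the joint, the organ with overt arthritis, Plac8 was 335 UPM in H3. In S1 it was 811 UPM in the 2CIA library and 1646 UPM in the CIA library, a ratio of 2.60 for the summed libraries. The joint's neutrophil markers were 65242 UPM in H3 and 138922 UPM in S1, and its monocyte markers 8143 and 11537 UPM. Their part in the ratio was not tested either. The joint libraries of S1 differed from each other by nearly as much as the states, and the smaller of them had 70 barcodes.

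In the thymus, Plac8 was 424 UPM in H6 and 672 UPM in S1, a ratio of 1.59. Thymocyte-marker barcodes held 381 and 735 UPM, T-marker barcodes 428 and 530 UPM and barcodes of no class 573 and 507 UPM. The summed thymocyte markers of the organ were 2883 and 1964 UPM, and the neutrophil markers 164 and 1622 UPM. In muscle it was 388 UPM in H6 and 338 UPM in S1, a ratio of 0.871. The muscle libraries differed in their cells. The summed neutrophil markers were 111496 UPM in H6 and 19167 UPM in S1, and the summed fibroblast markers 1005 and 21004 UPM. The monocyte markers were higher in S1 (7440 against 13853 UPM), as were the macrophage markers (805 against 7623 UPM) and the interferon-stimulated genes (1117 against 5361 UPM), although Plac8 was not. In other organs, healthy against S1, the interferon-stimulated genes were at 1153 and 5102 UPM in spleen and 802 and 4988 UPM in lung. They were at 1267 and 3850 UPM in joint, 872 and 1290 UPM in skin and 482 UPM in both thymus libraries. The muscle library of S1 had 54 barcodes with 16 distinct profiles. Without barcode sequences shared between libraries, the ratios were 3.88 in lung, 2.01 in spleen and 2.89 in joint. Counting each distinct profile once, the joint ratio was 1.77.

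Barcodes were next divided by marker genes among 13 cell classes, with Plac8 not among the markers. The class with the highest median, Ly6C-high monocyte, had 2928 to 4796 UPM of Plac8 in the 5 mouse and organ samples with at least 10 such barcodes, all from CIA mice. These were blood of S6 (4428 UPM), blood of S2 (4152 UPM), spleen (4796 UPM), joint (3016 UPM) and lung (2928 UPM) of S1. This class held 3.38% of all barcodes and 25.8% of all Plac8 units, and every one of its barcodes in those samples had Plac8. Smaller groups were the 7 such barcodes in the blood of S7 (4854 UPM), and in healthy mice 2 in the blood of H7 (1361 UPM) and 5 in the muscle of H6. The last were at 239 UPM, below the whole muscle library, so the level of this class in healthy mice was not settled by these few barcodes.

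Plasmacytoid dendritic cell-marker barcodes, the class of the professional type I interferon producers, had the next median, 865 UPM over 8 samples, although each class was found in other samples and the medians are not matched. In healthy spleen, NK-marker barcodes (1202 UPM) were above them. In lymph node they were at 624 UPM in H3, and at 837, 844 and 1529 UPM in S1, S2 and S7. In spleen they were at 1140 UPM in H6 and 2653 UPM in S1. This class was above the whole organ in each of these samples.

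Macrophage-marker barcodes ranged from 91.3 UPM in the healthy joint to 1528 UPM in the joint of S1. All 70 barcodes of the healthy lung were of this class (529.8 UPM), while those in the lung of S1 were at 1061 UPM. Neutrophil-marker barcodes ranged from 274 UPM in blood of S2 to 1231 UPM in blood of S7, and were at 295 and 966 UPM in the joints of H3 and S1. At the low end, fibroblast-marker barcodes had a median of 111 UPM and were listed at 0 in both skin samples, though they were at 637 UPM in the muscle of S1, where 20 such barcodes held 59.6% of the Plac8 units. In the joint they were lower in S1 (111 UPM) than in H3 (180.4 UPM). In skin, keratinocyte-marker barcodes were at 11.6 UPM in H6 and 9.11 UPM in S1. In the joint, barcodes given this class label were at 1307 UPM in H3 and 729.6 UPM in S1. They were 17 and 32 barcodes with 6 and 12 distinct profiles. The summed keratinocyte markers of the whole organs were 519 and 772 UPM in joint, against 10035 and 6277 UPM in skin. What cells these joint barcodes are was therefore not settled.

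**Figure D2:**
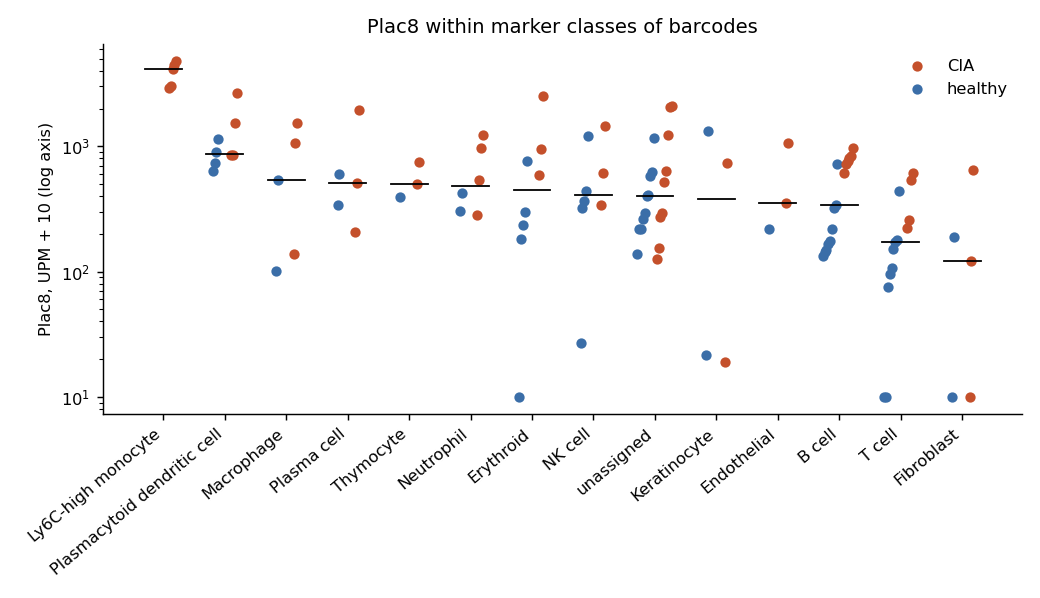
Plac8 (UPM + 10, log axis) in each mouse and organ with at least 10 barcodes of a marker class, healthy in blue and CIA in red, with the median as a black line. The Ly6C-high monocyte class lies highest, at 2928 to 4796 UPM, and all of its points are from CIA mice.

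The classes that carried the Plac8 units of blood differed between the states. Myeloid-marker barcodes held 76.4% of the Plac8 units in S2, 72.4% in S6 and 65.3% in S7. In healthy blood myeloid-marker barcodes held 1.08% in H4 (5 barcodes) and 1.35% in H7 (2 barcodes), and none were found in H6. B-marker barcodes held 35.3%, 57.3% and 58.9% in H4, H6 and H7, beside 34.5%, 55.4% and 56.7% of all units. Erythroid-marker barcodes held 37.3% of the Plac8 units in H4, more than its B-marker barcodes, 4.29% in H6 and 19.3% in H7. Their shares of all units were 44.1%, 4.73% and 25.3%. In S2, 22.9% of the Plac8 units and 26.8% of all units were in 71 erythroid-marker barcodes, at 2495 UPM. In lymph node T-marker barcodes held 31.9 to 82.6% of the Plac8 units of healthy mice, beside 45.9 to 90.1% of all units. In CIA mice they held 19.4 to 35.7%, beside 20.7 to 54.8% of all units. In S1, 55.1% of the Plac8 units and 55.7% of all units were in barcodes of no class.

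**Figure D3:**
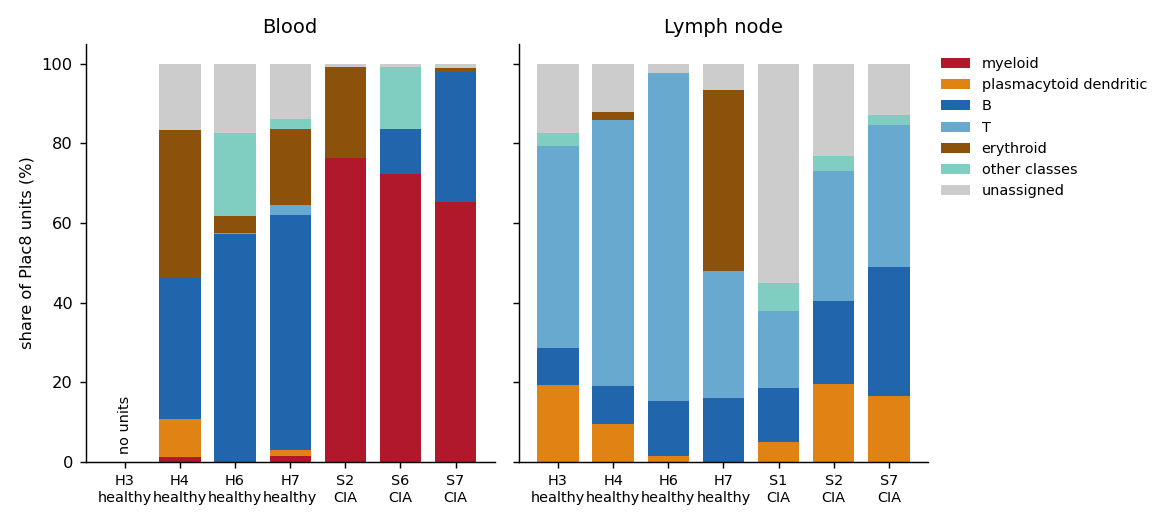
Share of the Plac8 units (%) in each marker class of barcodes, 1 bar per mouse, for blood and lymph node. Myeloid classes hold 65.3 to 76.4% in CIA blood and at most 1.35% in healthy blood, and the blood of H3 has no Plac8 units. The bars do not show class sizes, and the myeloid classes of healthy blood are 5 barcodes in H4 and 2 in H7.

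Within lymphocyte classes of the lymph node, CIA mice were again above healthy mice. In B-marker barcodes Plac8 was 824 UPM in S1, 714 UPM in S2 and 598 UPM in S7, and 167, 134, 138 and 122 UPM in H3, H4, H6 and H7. The group means were 712 ± 113 UPM (SD, n = 3) and 140.2 ± 18.9 UPM (SD, n = 4). The groups were far apart, with a log2 difference of 2.26, and 2.87% of the 5499 genes compared in these barcodes had every CIA mouse above every healthy mouse.

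In T-marker barcodes of the lymph node Plac8 was 597 UPM in S1, 215 UPM in S2 and 248 UPM in S7, and 84.8, 97.2, 64.9 and 168 UPM in H3, H4, H6 and H7. The log2 difference was 1.60, and 1.16 without S1, the highest of the mice. Of 4963 genes compared in these barcodes, 2.22% had every CIA mouse above every healthy mouse. In B-marker barcodes of healthy blood Plac8 was at 207, 329 and 310 UPM in H4, H6 and H7. In those of CIA blood it was at 950.1 UPM in S6 (23 barcodes, 7 distinct profiles) and 758 UPM in S7. Neutrophil markers in these blood barcodes were 1428 to 6440 UPM in healthy mice, 1792 UPM in S6 and 13381 UPM in S7. In spleen, B-marker barcodes were at 713 UPM in H6 and 801 UPM in S1, closer than the whole organs, and these barcodes held neutrophil markers at 734 and 14870 UPM.

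Within these lymph node classes, 7 of 21 interferon-stimulated genes in B-marker barcodes and 8 of 14 in T-marker barcodes had every CIA mouse above every healthy one, Ifi27l2a, Ifit3 and Xaf1 in both, beside 2.87% and 2.22% of all genes. The summed macrophage markers in T-marker barcodes did not overlap between the states either, at 227 to 329 UPM in healthy and 336 to 695 UPM in CIA mice. In B-marker barcodes the summed interferon-stimulated genes were 662 to 980 UPM in healthy and 3182 to 4404 UPM in CIA mice, and in T-marker barcodes 629 to 1222 UPM and 2409 to 3211 UPM. In B-marker barcodes the summed monocyte markers were 996 to 1688 UPM in healthy and 1240 to 1777 UPM in CIA mice, and the plasmacytoid dendritic cell markers 846 to 1352 UPM and 745 to 1310 UPM. In T-marker barcodes the monocyte markers were at 1021 to 1239 UPM and 1149 to 1399 UPM. The monocyte and plasmacytoid dendritic cell sums thus overlapped between the states, as did the macrophage sum in B-marker barcodes (636 to 1094 UPM and 649.5 to 893 UPM), although single markers did not, namely Ms4a4c in B-marker and Ly6c2 and the protease gene Ctss in T-marker barcodes, each higher in CIA. Sums of keratinocyte markers in T-marker and of thymocyte markers in B-marker barcodes were lower in CIA without overlap. The part of other cells' RNA in these barcodes was not tested.

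**Figure D4:**
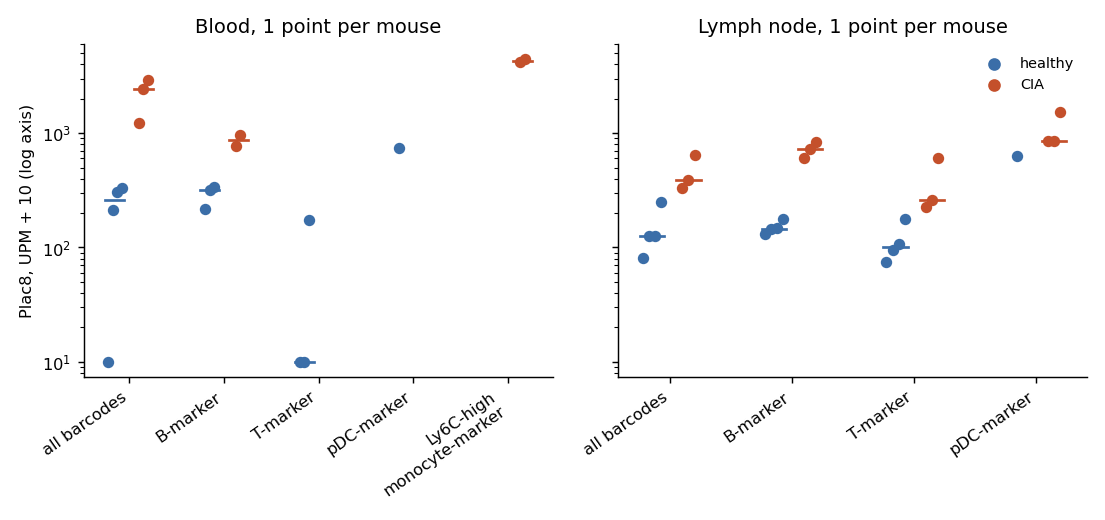
Plac8 per mouse (UPM + 10, log axis) in all barcodes and in marker classes with at least 10 barcodes (pDC, plasmacytoid dendritic cell), with the median of each group of at least 2 mice as a line. In lymph node the CIA mice lie above the healthy mice in all barcodes and in B- and T-marker barcodes.

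Other genes of these cell types and pathways were tested with limma (Benjamini-Hochberg adjusted p below 0.05), leaving Plac8 out of every list. In blood, 5 of 141 list members tested rose and 0 fell, against 0.213% of all 5153 genes called in either direction. They were the interferon-stimulated genes Ifi27l2a (log2 difference 3.71, adjusted p = 0.003) and Ifitm3 (4.14, adjusted p = 0.0065), the neutrophil genes Retnlg (4.67, adjusted p = 0.022) and S100a8 (3.69, adjusted p = 0.027), and lysozyme Lyz2 (2.56, adjusted p = 0.047), a member of both the monocyte and the granulocyte killing lists. At an unadjusted p below 0.05, 27 list members were higher and 24 lower. The calls rest on S2: without that mouse limma called 0 list members, and 47 had an unadjusted p below 0.05, while without S7 it called 8. With all mice but without the mean-variance trend it also called 0.

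Ifi27l2a was 77.5 to 343 UPM in healthy and 1639 to 3335 UPM in CIA blood, and Ifitm3 was 21.9 to 71.5 UPM and 473 to 1896 UPM. Retnlg was 0 to 107 UPM in healthy and 292 to 2518 UPM in CIA blood, and S100a8, a calcium-binding alarmin, was 899.7 to 4387 UPM and 3835 to 70394 UPM, with overlapping groups. Without the Ly6C-high monocyte-marker barcodes, an alternative also chosen after seeing the data, limma called 0 list members in blood, and 34 had an unadjusted p below 0.05.

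The lists of blood differed in sign, each described by its median log2 difference beside -0.38 for all genes. The medians were 2.30 for 12 neutrophil genes, 2.03 for 18 interferon-stimulated genes, 1.72 for 17 Ly6C-high monocyte genes and 1.57 for 9 genes of granulocyte killing, such as the oxidase subunits. They were 1.08 for 7 C/EBP and SPI1 factors, 0.66 for 16 lysosome and autophagy genes and 0.65 for 5 macrophage genes. On the other side they were -0.58 for 6 plasmacytoid dendritic cell genes, -0.90 for 3 plasma cell genes, -1.10 for 9 recirculation genes and 16 B cell genes, -1.35 for 10 erythroid genes, -1.73 for 6 NK cell genes and -2.21 for 16 T cell genes. With a trimmed mean of log ratios, where the median of all genes was -0.65, the medians were 0.43 for the C/EBP and SPI1 factors, 0.93 for granulocyte killing, 0.33 for lysosome and autophagy genes and 1.40 for interferon-stimulated genes. The macrophage median was 1.24 with the median of ratios, and the plasmacytoid dendritic cell median -0.35 when scaled to all units. Within the lists not yet named, 0 of the tested members passed the test. Ctsb, a lysosomal protease, had a log2 difference of 2.87 (adjusted p = 0.37), Spi1 one of 1.62 (adjusted p = 0.45) and Cd3d, a T cell receptor subunit, one of -3.16 (adjusted p = 0.37).

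In lymph node, 1 of 105 list members tested rose and 0 fell, against 0.0194% of the 5159 genes. It was Ifi27l2a (log2 difference 2.48, moderated limma SE 0.34, limma adjusted p = 0.0045). Its level was 133 to 395 UPM in healthy and 929 to 1486 UPM in CIA mice, and without the mean-variance trend it was not called. Without H3, 4 list members were called, Ifi27l2a and the haemoglobin genes Hba-a1, Hbb-bs and Hbb-bt. Those haemoglobin genes were lower in CIA with all mice in the fit (Hba-a1 -4.31, limma adjusted p = 0.95). At an unadjusted p below 0.05, 15 list members were higher and 13 lower. The median of 15 interferon-stimulated genes was 1.17, with 14 of them positive, beside -0.01 for all genes. Lower medians of the other lists were -3.84 for 5 erythroid genes, -0.43 for 5 genes of granulocyte killing, -0.40 for 17 T cell genes, -0.38 for 4 thymocyte genes, -0.30 for 3 NK cell genes and -0.18 for 9 recirculation genes. Those above 0 were 1.21 for 2 neutrophil genes (S100a8 and S100a9), 0.33 for 2 macrophage genes, 0.59 for 4 plasma cell genes, 0.29 for 5 plasmacytoid dendritic cell genes, 0.24 for 5 C/EBP and SPI1 factors, 0.20 for 10 monocyte genes, 0.13 for 16 B cell genes and 0.01 for 11 lysosome and autophagy genes. With a trimmed mean of log ratios the median of all genes was 0.16, that of the recirculation genes turned to 0.004, and those of the T cell and granulocyte killing genes were -0.21 and -0.16. By the same scaling the medians were -0.14 for NK cell, -0.22 for thymocyte, 0.28 for B cell, 0.52 for plasmacytoid dendritic cell, 0.34 for monocyte and 0.18 for lysosome and autophagy genes. With libraries of the suffix 2CIA alone S100a8 and S100a9 were called as well as Ifi27l2a.

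**Figure D5:**
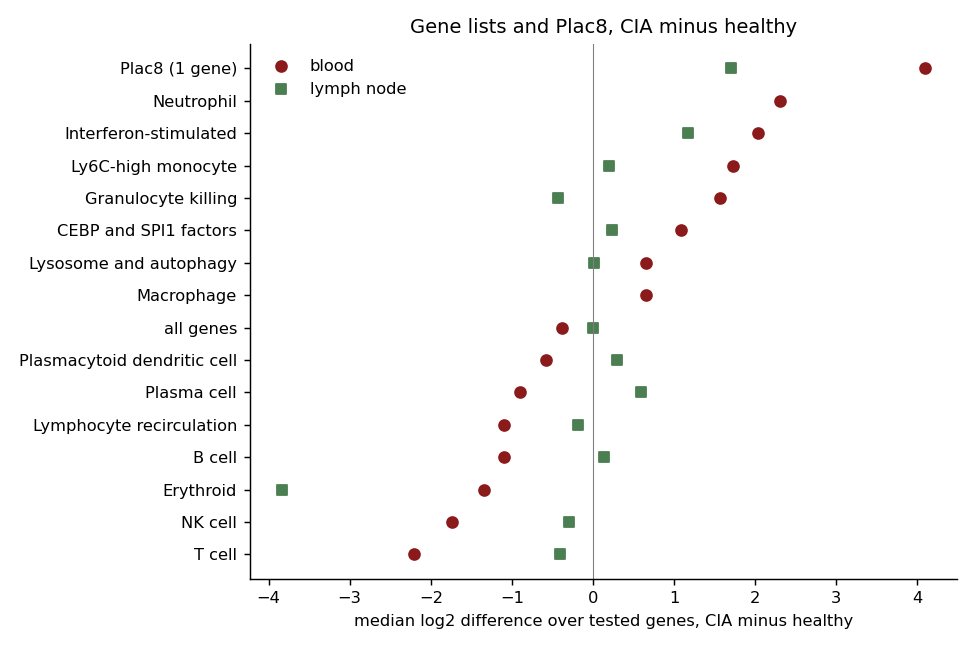
Median log2 difference, CIA minus healthy, of the genes of each list with at least 3 genes tested, in blood (circles) and lymph node (squares), with the single gene Plac8 in the top row and all genes for comparison. Plac8 is at 4.10 in blood and 1.70 in lymph node, and interferon-stimulated genes are at 2.03 and 1.17.

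Between the organs, 13 of 136 list members were higher and 26 lower in lymph node than in blood, against 4.34% and 2.49% of 5213 genes. The 13 were T cell genes such as Lck (log2 difference 2.64, limma adjusted p = 0.0013) and the thymocyte-list genes Cd8b1 and Cd8a. The 26 held 8 monocyte genes, among them Lyz2 (-4.20, adjusted p = 0.00033) and the chemokine receptor gene Ccr2 (-2.47, adjusted p = 0.0062). Erythroid genes among the 26 were Hba-a1 and Hbb-bs (-6.50 each, adjusted p = 0.00081), Hbb-bt (-6.37, adjusted p = 0.00094) and Alas2 (-3.95, adjusted p = 0.00094). The 26 also held 4 neutrophil genes and the factors Spi1 (-3.05, adjusted p = 0.0013), Cebpb (-1.84, adjusted p = 0.0043) and Cebpd (-1.98, adjusted p = 0.042).

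Over the 26 mouse and organ profiles, the genes whose log2 level was most like that of Plac8 were Tmem160 (Pearson r = 0.77), Clec12a (0.75), Tpm3-rs7 (0.73), Krtcap2 (0.73), Rgs2 (0.72), Rnaseh2c (0.72), Sp140 (0.72), Sec11c (0.71), Cybb (0.71) and Napsa (0.70). Clec12a encodes an inhibitory lectin receptor of myeloid cells and Cybb the catalytic subunit of the phagocyte oxidase. Without the 7 blood profiles Tmem160 had an r of 0.81, and Clec12a one of 0.68. Lowest were Ndufaf4 (-0.72), Tnfrsf18 (-0.72), a receptor of activated and regulatory T cells, and Llph-ps2 (-0.71). The profiles share mice, libraries and depth, so these values describe a ranking among 5665 genes.

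Within libraries, over distinct profiles, Plac8 was followed most closely by Tyrobp (mean Spearman rho 0.34 over 28 libraries), which encodes the adaptor of myeloid activating receptors, then Gm20203 (0.33), Lyz2 (0.30), Gpx1 (0.26), Cybb (0.25), Esd (0.24), Prdx1 (0.24), Lgals3 (0.23), H3f3a (0.23) and H2-D1 (0.22). Cybb was the gene found in both rankings. Lowest were Gm4525 (-0.15), Malat1 (-0.14), a nuclear RNA, and Ets1 (-0.14), a lymphocyte factor. Profiles of a library share cells through smoothing, so these are weak relations that serve as a description.

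Of the PLAC8 family, Plac8l1 was not analysed here, and Cnfn, which encodes cornifelin of the cornified envelope, was above 0 in 1 library, a joint library of S1, at 1.1 UPM in the summed joint of that mouse. The genes next to Plac8 on chromosome 5 did not share its levels. Cops4, which encodes a subunit of the COP9 signalosome, ranged from 0 to 45.4 UPM in healthy blood and from 0 to 28.1 UPM in CIA blood, and the pseudogene Gm19620 was at 98.4 to 309.8 UPM and 134 to 408 UPM. On the other side, Coq2 of coenzyme Q synthesis was at 0 to 24.8 UPM and 0 to 13.2 UPM, and Hpse, which encodes heparanase, at 0 to 10.9 UPM and 0 to 32.5 UPM. The groups overlapped for all 4 neighbours.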

How the data were processed

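The deposited signal values are whole-number sums of transcript (UMI) counts over a cell and its nearest neighbours. The authors made them with bcl2fastq, Picard, the Drop-seq tools, STAR on GRCm38 and knn smoothing, without scaling to a common total. Submitters' processing notes also list mm9, with no role given, and GRCh38, which the study's methods name for human orthologs. Coordinates here come from GRCm38 tables, through which 21404 of 23013 rows had a symbol.

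Units were summed per mouse and organ and divided by units outside 11 haemoglobin rows, because haemoglobin varied widely. Differences are of log2(UPM + 10). Genes whose mean level reached 25 UPM were fitted with limma 3.58.1 (R 4.3.3, mean-variance trend, two-sided, Benjamini-Hochberg), tested on simulated data. Replicates were mice, with the libraries of a mouse and organ summed. Blood and lymph node of 1 mouse are paired by animal. The correlation of their deviations was -0.18 to 0.15.

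A barcode joined the class with the highest mean marker log2 fold (capped at 3, 100 UPM added, against the mean library) if 3 markers were above 0, the score was above 0 and the lead was at least 0.1. Of all barcodes 16.5% joined none. No doublet caller was run on the smoothed values, and the study's methods remove cells of very high transcript number as possible duplicates. No depth in reads is known, so no counting interval is given.

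Genes were named by rule: Plac8, its family, 2 neighbours a side, the 10 most and 3 least alike by each measure, and list members called or of smallest p. Outside that rule, and after their values were seen, other genes were named. They shared the organ pattern, were markers listed at 0 in lymph node or lung, or did not overlap within lymph node classes. Gene, lists and markers were chosen with earlier results of these data known. Alternatives covered scaling, pseudocount, filter, trend, suffix, duplicate profiles and each mouse left out.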

Additional observations from a re-analysis of the deposited data

Results flagged for a closer look

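Muscle was the organ in which Plac8 went the other way, at 0.871 times the healthy level in the CIA mouse S1, while the other 7 organs were higher in CIA. The difference between muscle and the other organs was not tested, since muscle came from 1 mouse of each state. Counting each distinct profile once, the ratio was 0.666.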

How the results depend on the processing

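The Plac8 differences of blood, lymph node and lymph node minus blood kept their direction under every alternative run, as did those within lymph node B- and T-marker barcodes. All moved by less than 1 residual SD of the main comparison. That SD was 1.92 in blood, 0.61 in lymph node and 1.51 for lymph node minus blood, a wide margin that does not show stable sizes. In blood the alternatives reached from 2.897 (without H3) to 5.52 (suffix 2CIA only). Leaving out each mouse in turn gave 2.897 (without H3) to 4.58 in blood, 1.42 to 2.00 in lymph node, -1.63 (without H3) to -0.50 (without S2) for lymph node minus blood, 2.15 to 2.38 in B-marker and 1.16 to 1.88 in T-marker barcodes. With a trimmed mean of log ratios the Plac8 difference was 3.39 in blood and 1.88 in lymph node, and the median of all genes was -0.65 and 0.16. Single-mouse organ ratios moved by less than 1.5 times.

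Numbers of called list members were less stable. In blood, 5 became 3 with a trimmed mean of log ratios, 1 with a pseudocount of 1, 13 without a filter, 0 without trend (46 at an unadjusted p below 0.05), and, in alternatives chosen after seeing the data, 9 with each distinct profile counted once, 8 with the median of ratios, 0 without Ly6C-high monocyte-marker barcodes and 0 without myeloid-marker barcodes (34 and 25 unadjusted). Leaving out mice gave 0 (without S2) to 8 (without S7). In lymph node, 1 became 3 with the suffix 2CIA only, 5 without a filter, 0 without trend (20 unadjusted), and 1 to 4 (without H3, 3 of them haemoglobin genes) when leaving out mice. Between the organs, 39 became 24 with the suffix 2CIA only and 24 without a filter, and 26 to 43 when leaving out mice. With the mouse as replicate block, on the 6 mice with both organs, 37 were called, 32 of them shared with the 39, and the Plac8 difference was -0.70. The causes were not tested.

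Few mice, 1 per state in 6 organs, and small libraries limit all values, and a level listed at 0 does not show absence.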
